A study of Mus musculus with 6 samples.

Results

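The genes described here encode the nuclear-encoded subunits of the oxidative phosphorylation machinery. They were chosen by name, with earlier results of these data known, and no measured value entered the naming rule. The rule takes every protein-coding gene of the deposited annotation whose symbol begins with Ndufa, Ndufb, Ndufc, Ndufs or Ndufv and a digit, Uqcr, Cox4 to Cox8 or Atp5, or is Sdha, Sdhb, Sdhc or Sdhd, leaving out Ndufa4l2. This gave 84 of 54532 genes, of which 35 belong to complex I, 4 to complex II, 8 to complex III, 19 to complex IV and 18 to complex V. Ndufa4 was counted in complex IV, where its protein resides. The rule leaves out genes such as Cyc1, Cycs, Ndufab1, Usmg5 and Atpif1, which were read in a separate list of 10 genes that also holds Ndufa4l2. It takes in Atp5s, which is not a structural subunit.

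The cells were primary wild-type mouse bone marrow mesenchymal stromal cells (BMSCs), a plastic-adherent culture grown from bone marrow. All 6 cultures were kept for 7 days in osteogenic medium with dexamethasone, ascorbic acid and β-glycerophosphate, 3 without added nickel (Con) and 3 with 0.1 μM nickel ion (Ni, supplied as NiCl2). The comparison asks which transcripts a low nickel dose moves during mineralization. The labels give neither sex, age nor strain and do not say whether the 3 libraries of a group came from separate animals, so the p-values below measure the spread between libraries, which may be technical.

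The respiratory chain of the inner mitochondrial membrane passes electrons from NADH (complex I) and succinate (complex II) through complex III to oxygen at complex IV, and ATP synthase (complex V) uses the resulting proton gradient. Complexes I, III, IV and V are mosaics of a few mitochondrially encoded proteins and many nuclear-encoded ones, and the nuclear genes are known to be driven by factors such as NRF1, GABP, YY1, CREB and the oestrogen-related receptors. Osteoblasts are known to use both glycolysis and oxidative phosphorylation as they mature, and bone marrow cultures also hold macrophages.

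Library totals ran from 16101033 to 18642504 counts. Nickel libraries held more osteoblast marker RNA, with 0.589%, 0.524% and 1.201% of counts on 9 osteoblast markers in Con 1 to 3 and 1.58%, 1.12% and 1.65% in Ni 1 to 3, and Con 3 thus lay above Ni 2. Stromal markers took 1.16%, 1.21% and 1.95% of counts in Con and 2.89%, 2.40% and 2.81% in Ni (exact permutation test, two-sided, p = 0.1, the smallest that 3 against 3 allow). Macrophage markers took 2.57% to 3.08% of counts in Con and 2.57% to 2.65% in Ni, so the cultures labelled mesenchymal stem cells also carried macrophage RNA, with overlapping ranges. Skeletal and heart muscle markers took at most 0.00223% of counts in any library. In bulk RNA, fewer cells of a type and less RNA per cell cannot be told apart, and the part of cell composition in the values below was not tested.

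The promoters of 68 of the 84 genes could be matched in RefSeq (GRCm38.p6), as windows from 250 bases before to 50 bases after the annotated start. The motif of NRF1, searched as GCATGCGC on both strands, was present in 14.7% of these 68 genes against 3.05% of all 27025 genes with such a window. The YY1 motif AAGATGGC was present in 14.7% (10 genes) against 3.19%, and the ETS motif CCGGAAGT bound by GABP in 7.35% (5 genes) against 4.31%. The CREB motif TGACGTCA was present in 5.88% (4 genes) against 2.03% and the oestrogen-related receptor motif TCAAGGTCA in 2.94% (2 genes) against 0.466%. The background took all genes with a window, expressed in these cells or not, and the differences were not tested. At least 1 of the 5 motifs was found in 42.6% of the 68 genes and in 12% of all genes. A match describes the letters in the window and not a bound site.

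Of the 14 genes with a window whose level was lower in Ni at an unadjusted p under 0.05, 4 held a motif, and their windows are shown so that the match can be seen in place. All 4 lie on the minus strand and are written 5′ to 3′ in the direction of transcription, with the motif in capitals. They are Atp5g2 at chr15:102670998-102671297, Atp5l at chr9:44920693-44920992 and Ndufa6 at chr15:82354242-82354541, each with the NRF1 motif, and Atp5h at chr11:115419870-115420169 with the ETS motif. In Atp5g2 the 10 capitals are overlapping matches on both strands.
Atp5g2: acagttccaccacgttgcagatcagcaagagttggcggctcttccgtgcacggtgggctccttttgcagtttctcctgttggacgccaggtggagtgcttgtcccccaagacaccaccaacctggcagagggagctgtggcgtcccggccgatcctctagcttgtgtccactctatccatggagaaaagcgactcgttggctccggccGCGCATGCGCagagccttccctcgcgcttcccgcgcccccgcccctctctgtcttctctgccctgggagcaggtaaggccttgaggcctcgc
Atp5l: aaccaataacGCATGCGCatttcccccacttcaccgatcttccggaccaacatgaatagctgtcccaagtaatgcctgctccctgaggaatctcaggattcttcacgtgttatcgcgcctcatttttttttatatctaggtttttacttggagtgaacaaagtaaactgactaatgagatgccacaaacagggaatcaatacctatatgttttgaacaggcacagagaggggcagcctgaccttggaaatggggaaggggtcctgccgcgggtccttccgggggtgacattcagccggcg
Ndufa6: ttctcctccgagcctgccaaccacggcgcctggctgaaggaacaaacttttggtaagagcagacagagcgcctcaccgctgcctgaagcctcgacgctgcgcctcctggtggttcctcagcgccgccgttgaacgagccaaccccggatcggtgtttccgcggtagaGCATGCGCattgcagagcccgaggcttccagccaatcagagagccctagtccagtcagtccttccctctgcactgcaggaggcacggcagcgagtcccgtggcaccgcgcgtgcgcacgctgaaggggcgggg
Atp5h: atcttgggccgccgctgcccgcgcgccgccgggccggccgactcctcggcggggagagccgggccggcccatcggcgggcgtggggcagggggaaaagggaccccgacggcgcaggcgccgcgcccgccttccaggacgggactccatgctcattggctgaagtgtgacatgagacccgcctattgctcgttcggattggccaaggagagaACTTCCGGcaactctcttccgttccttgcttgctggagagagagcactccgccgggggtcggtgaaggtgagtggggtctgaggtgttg

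The motif began 42 bases before the start in Atp5g2, 83 bases before it in Ndufa6, 39 bases before it in Atp5h and 240 bases before it in Atp5l. Among the 65 tested genes with a window, the 29 with any motif had a median log2 fold change (Ni over Con) of -0.13, and the 36 without had -0.21. At an unadjusted p under 0.05 in edgeR, 4 of the 29 and 10 of the 36 were lower, where 5.83% of all genes tested were. The 10 genes with an NRF1 motif had a median of -0.25 and 3 of them were lower. The 10 with a YY1 motif had a median of -0.12 and none was lower. Differences between these groups were not tested.

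Of the 84 genes, 80 passed the filter on low counts. The other 4 had 0 counts in all 6 libraries. These were Cox8b, Cox8c and Cox7b2, isoforms known from muscle or testis, and the Ensembl entry ENSMUSG00000116933, also named Atp5o, whose exon bases all belong to neighbouring annotations as well. Levels per length (FPKM, fragments scaled to gene length and sequencing depth) spanned a wide range. The highest mean over the 6 libraries was 222 FPKM for Cox8a, a small membrane subunit of complex IV, followed by Cox6a1 of the same complex at 217 FPKM, and in complex V the highest was Atp5a1, the α subunit of ATP synthase, at 179 FPKM. The lowest was 0.770 FPKM for Cox6a2, the heart and skeletal muscle form of subunit 6a. Ndufa2 at 86.6 FPKM was highest and Ndufb2 at 1.78 FPKM lowest in complex I, Sdhd at 93.2 FPKM and Sdhc at 32.8 FPKM framed complex II, Uqcrh at 82.3 FPKM and Uqcrc2 at 29.2 FPKM framed complex III, and Atp5s at 3.22 FPKM was lowest in complex V. The deposited gene lengths set this scale, and the length given for a gene with long alternative transcripts lowers its FPKM.

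Most of the 80 genes lay a little lower in nickel-treated cells, and none passed the adjusted threshold. In edgeR's quasi-likelihood test 0 of the 80 reached an adjusted p under 0.05, as did 0 of all 14624 genes tested (0%), and the smallest adjusted p among the 80 was 0.288, for Ndufs5. By DESeq2 again 0 of the 80 did, with 257 of 14065 genes (1.83%) past the threshold overall. The log2 fold change was below 0 for 69 of the 80, or 86.2%, against 51.9% of all genes tested. Their median log2 fold change was -0.19, against -0.01 over all genes. At an unadjusted p under 0.05, 17 were lower, where 5.83% of all genes tested were, and 2 were higher, where 7.59% of all genes were. All 3 Ni libraries lay below all 3 Con libraries for 17 genes (background 6.71%) and above them for 1 (background 7.97%).

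**Figure D1:**
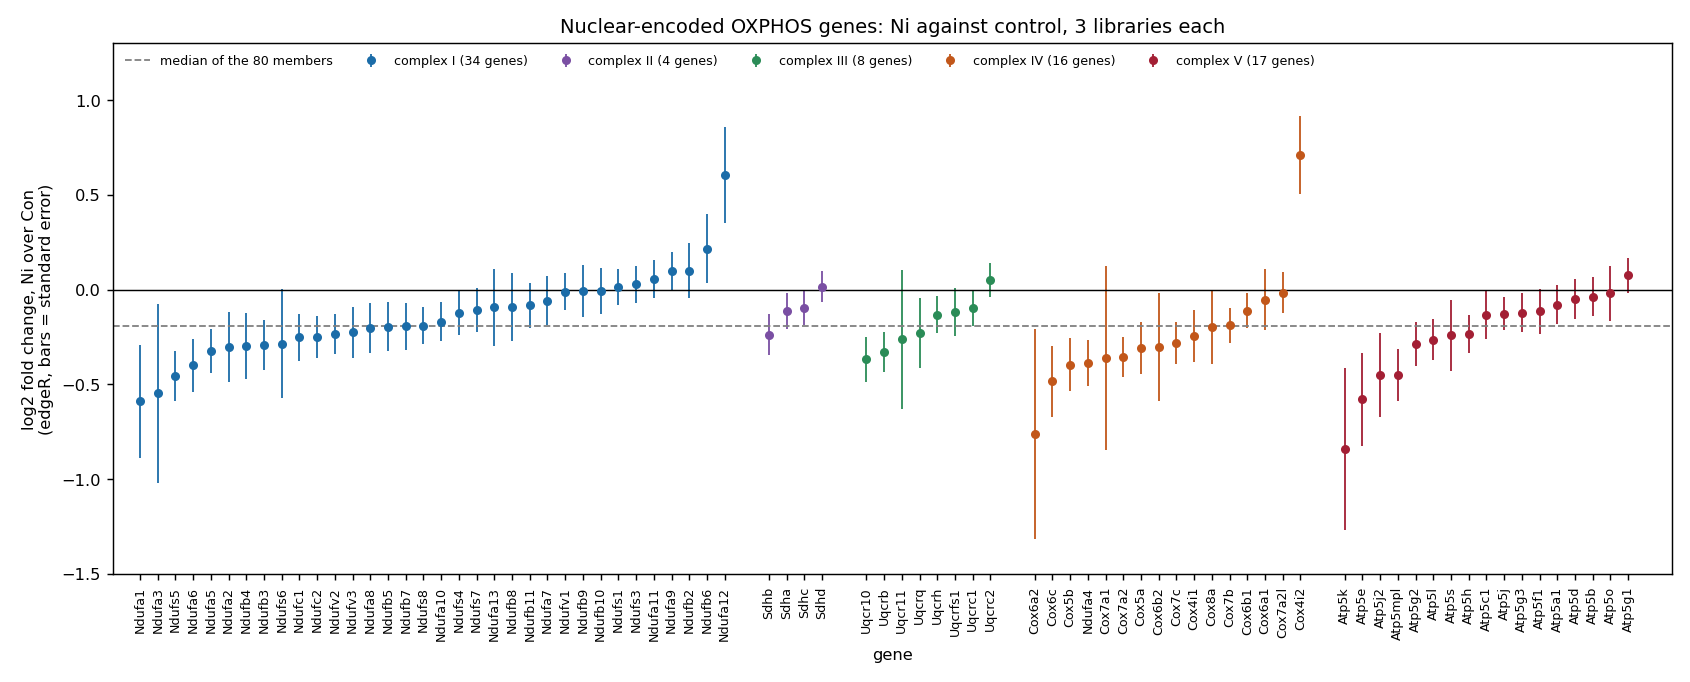
Log2 fold change of 79 of the 80 tested genes in Ni against Con (vertical axis, edgeR), ordered within complexes I to V along the horizontal axis. Points are fold changes from 3 libraries a group, bars are standard errors and the dashed line is the median of all 80, -0.19. Cox4i2 at 0.71 and Ndufa12 at 0.60 stand above the rest, and Atp5k at -0.84 is lowest.

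The libraries of a group were not alike. Relative to the control mean, the median difference in log2 CPM (counts scaled to library size) over the 80 genes was -0.07, 0.09 and -0.02 in Con 1 to 3 and -0.19, -0.05 and -0.23 in Ni 1 to 3. Ni 2 thus lay among the controls, between Con 1 and Con 3, and Ni 1 and Ni 3 lay below all of them. The difference of the group means of these medians was -0.16 (exact permutation test, two-sided, p = 0.2, n = 3 per group). Ni 2 was the highest Ni library for 52 of the 80 genes (65%), where it was so for 39.4% of all genes tested, and Con 2 was the highest Con library for 55 (68.8%), against 32.6% of all genes. The 17 genes lower at an unadjusted p under 0.05 became 27 without Ni 2, 6 without Ni 1 and 7 without either Con 2 or Ni 3. The share of all genes moved as well, from 5.83% to 7.98% without Ni 2, 2.36% without Ni 1, 1.79% without Con 2 and 2.32% without Ni 3.

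Summed over the genes, the level was 6046, 6705 and 6044 CPM in Con and 5524, 6059 and 5445 CPM in Ni. The log2 ratio was -0.14 (exact permutation test, two-sided, p = 0.3, n = 3 per group). As a share of raw counts without scaling, the genes took 0.609%, 0.661% and 0.608% in Con and 0.546%, 0.606% and 0.548% in Ni, where the groups did not overlap (exact permutation test, two-sided, p = 0.1). Con 3 was the control library richest in osteoblast, stromal and macrophage markers alike. Leaving it out brought 7 of the 80 past the adjusted threshold in edgeR, where 976 of 15044 genes (6.49%) were then called lower and 1307 (8.69%) higher. The 6 lower ones were Atp5g2, Cox5a, Ndufa4, Ndufc2, Sdhb and Uqcr10, and the higher one was Cox4i2, so the share of the 80 called was near or below that of all genes in each direction.

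**Figure D2:**
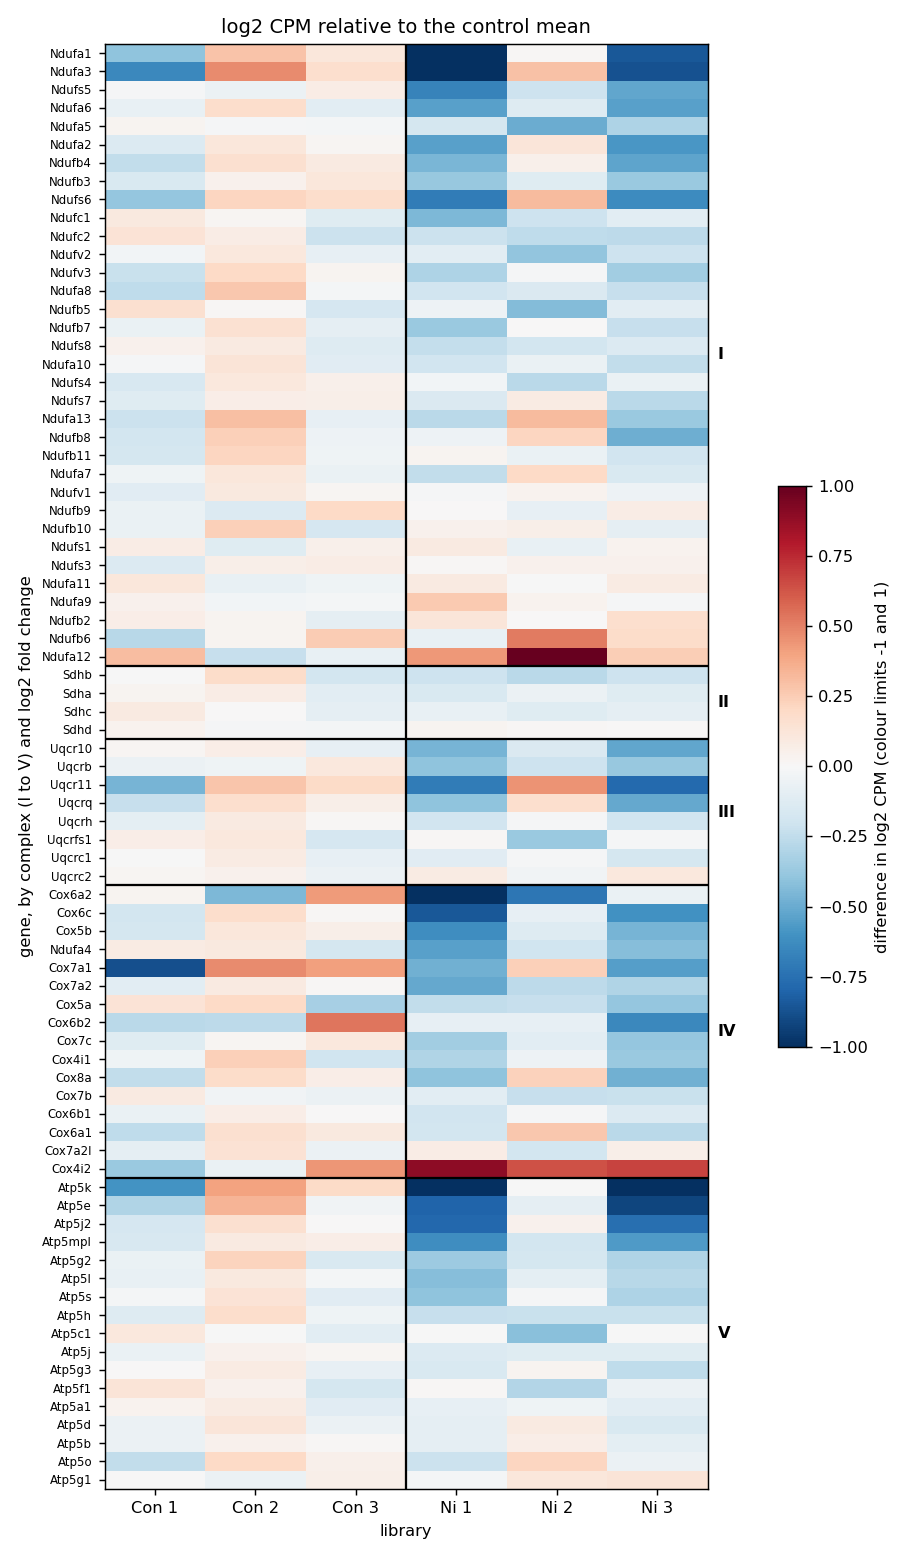
Difference in log2 CPM from the control mean for 79 of the 80 genes (rows, by complex I to V and fold change) in the 6 libraries (columns). Blue is below and red above the control mean, with the colours limited to -1 and 1. Ni 1 and Ni 3 are mostly blue, Ni 2 is closer to the controls, and Cox4i2 is red in all 3 Ni libraries.

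In complex I, the NADH dehydrogenase, 28 of 35 genes lay below 0 and the median log2 fold change was -0.17. Summed levels were 1438, 1627 and 1491 CPM in Con and 1348, 1476 and 1307 CPM in Ni (exact permutation test, two-sided, p = 0.2). The 28 supernumerary subunits, which surround the core and serve its assembly and stability, had a median of -0.19. The 7 nuclear-encoded core subunits, some of which carry the flavin and iron-sulfur clusters, had a median of -0.11, and 5 of the 7 were below 0. The median principal transcript was 747.5 bases for the supernumerary and 1623 bases for the core subunits. The part of this length in the 2 medians was not tested.

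Ndufs5 (chromosome 4, 123712710 to 123718202, minus strand), a supernumerary subunit of the membrane arm, had 38.8, 37.5 and 41.0 FPKM in Con and 24.7, 33.7 and 27.3 FPKM in Ni. All Ni libraries were below all Con libraries, and the log2 fold change was -0.46 ± 0.13 (SE, edgeR, unadjusted p = 0.00577, adjusted p = 0.288). Its counts are uncertain, since 31.1% of the 50-base stretches of its principal GENCODE transcript also occur in other genes. Ndufa6, a supernumerary subunit of the matrix arm whose promoter is shown above, had 21.3, 25.3 and 20.7 FPKM in Con and 15.4, 20.3 and 15.4 FPKM in Ni. Its groups did not overlap either, with a log2 fold change of -0.40 ± 0.14 (SE, edgeR, unadjusted p = 0.0168).

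Ndufa5, also of the matrix arm, had 24.2, 23.6 and 23.3 FPKM in Con and 21.0, 16.7 and 19.2 FPKM in Ni. It is an exception to the order of the Ni libraries, since Ni 2 was its lowest, and its log2 fold change was -0.32 ± 0.12 (SE, edgeR, unadjusted p = 0.0204). Ndufc2, a membrane arm subunit, had 78.3, 75.1 and 61.2 FPKM in Con and 61.6, 59.6 and 59.4 FPKM in Ni. Here Con 3 was at the level of the Ni libraries, and the log2 fold change was -0.25 ± 0.11 (SE, edgeR, unadjusted p = 0.0462). The lowest fold change of the complex was that of Ndufa1, a small membrane arm subunit, with counts of 247, 346 and 321 in Con and 155, 313 and 178 in Ni. Ni 2 was within the control range, and the log2 fold change of -0.59 ± 0.30 (SE) had an unadjusted p of 0.0821 in edgeR.

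Ndufa12, an accessory subunit of the NADH-binding end, went the other way. It had 118, 70 and 82 counts in Con and 130, 188 and 112 in Ni, and its log2 fold change was 0.60 ± 0.25 (SE, edgeR, unadjusted p = 0.0373, adjusted p = 0.354). Con 1 lay above Ni 3, so the groups overlapped. Of all 50-base stretches of its principal transcript, 26.2% also occur in other genes, so its counts are uncertain.

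Within the catalytic core, no gene had an unadjusted p under 0.05, and 2 of the 7, Ndufs8 and Ndufv2, had all Ni libraries below all Con libraries in log2 CPM (28.6%, background 6.71%). Ndufv1, which binds NADH and the flavin, had 17.6, 20.4 and 19.2 FPKM in Con and 19, 19.4 and 18.5 FPKM in Ni (log2 fold change -0.01 ± 0.10, SE). Ndufs1, the largest iron-sulfur subunit, had 9.86, 8.57 and 9.63 FPKM in Con and 9.96, 8.83 and 9.61 FPKM in Ni (log2 fold change 0.01 ± 0.10, SE). Both signs turned in other settings. Elsewhere in the core, Ndufs3 was at 0.03, Ndufs7 at -0.11, Ndufs8 at -0.19 and Ndufv2 at -0.23 on the log2 scale, with unadjusted p between 0.0508 and 0.78 in edgeR.

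Complex II, succinate dehydrogenase, is wholly nuclear-encoded and also acts in the tricarboxylic acid cycle. Its 4 genes had a median log2 fold change of -0.10. Sdhb, the iron-sulfur subunit, had 47.3, 53.9 and 41.5 FPKM in Con and 41.1, 39.1 and 41.1 FPKM in Ni, so that the highest Ni library lay just under the lowest Con library (log2 fold change -0.24 ± 0.11, SE, edgeR, unadjusted p = 0.0515). Sdhd, a membrane anchor, was level at 94.8, 91.9 and 91.1 FPKM in Con and 94.9, 93.2 and 93.4 FPKM in Ni (log2 fold change 0.02 ± 0.08, SE).

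In complex III, the cytochrome bc1 complex, 7 of 8 genes lay below 0 and the median log2 fold change was -0.18. Uqcr10, a small subunit near cytochrome c1, had 91.7, 94.9 and 85.2 FPKM in Con and 66.0, 81.7 and 63.2 FPKM in Ni. The groups did not overlap and the log2 fold change was -0.37 ± 0.12 (SE, edgeR, unadjusted p = 0.0113). Uqcrb, the ubiquinone-binding small subunit, had 36.6, 36.9 and 40.8 FPKM in Con and 28.9, 32.8 and 29.3 FPKM in Ni, also without overlap (log2 fold change -0.33 ± 0.11, SE, edgeR, unadjusted p = 0.0118). Of the 50-base stretches of Uqcrb, 43.4% occur in other genes. Uqcrc2, a large core protein, was the highest of the complex at a log2 fold change of 0.05 ± 0.09 (SE).

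Complex IV, cytochrome c oxidase, had the lowest median of the 5 complexes, at a log2 fold change of -0.29, and 15 of its 16 tested genes lay below 0. Its tested genes also had the shortest median principal transcript, 652 bases. It was 908 bases in complex I, 2065.5 in II, 955 in III and 838 in V. Whether complex IV differs from the other complexes, by more than this length or at all, was not tested. Its median difference from the control mean was -0.11, 0.10 and 0.04 in Con 1 to 3 and -0.32, -0.09 and -0.38 in Ni 1 to 3 on the log2 CPM scale, so Ni 2 lay between Con 1 and Con 3 (exact permutation test, two-sided, p = 0.2).

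Ndufa4, which sits on complex IV in spite of its name, had 48.0, 48.5 and 40 FPKM in Con and 31.2, 39.4 and 33.9 FPKM in Ni. The groups did not overlap and the log2 fold change was -0.39 ± 0.12 (SE, edgeR, unadjusted p = 0.00916, adjusted p = 0.295). Cox7a2, the widely expressed form of subunit 7a, had 56.2, 64.1 and 60.8 FPKM in Con and 42.4, 50.2 and 49.1 FPKM in Ni, a log2 fold change of -0.36 ± 0.11 (SE, edgeR, unadjusted p = 0.00716), again without overlap. In Ndufa4 and Cox7a2, 0% of the 50-base stretches occur in other genes.

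Cox6c, a small nuclear-encoded subunit, had 16.5, 21.1 and 18.8 FPKM in Con and 10.5, 17.6 and 12.3 FPKM in Ni, with Ni 2 above Con 1 (log2 fold change -0.48 ± 0.19, SE, edgeR, unadjusted p = 0.0291). Cox5b, which binds zinc, had 28.9, 35.3 and 34 FPKM in Con and 21.3, 29.8 and 23.7 FPKM in Ni (log2 fold change -0.40 ± 0.14, SE, edgeR, unadjusted p = 0.0176). In both genes Ni 2 alone reached into the control range. Cox5a had 43.1, 44.8 and 30.9 FPKM in Con and 33.2, 33.1 and 29.9 FPKM in Ni, and there Con 3 was the exception (log2 fold change -0.31 ± 0.14, SE, edgeR, unadjusted p = 0.0493). For Cox5a 32% and for Cox5b 25.9% of the 50-base stretches recur in other genes, so both counts are uncertain. Cox7c was at a log2 fold change of -0.28 ± 0.11 (SE, edgeR, unadjusted p = 0.0308), with 53% of its 50-base stretches found in other genes.

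Cox4i2, the alternative form of subunit 4 known to be induced by low oxygen and to be prominent in lung and in pericytes, was the highest of all 80 genes. It lies on chromosome 2 from 152754173 to 152765037 on the plus strand. It had 120, 129 and 193 counts (8.27, 10.2 and 14.5 FPKM) in Con and 293, 231 and 248 counts (20.1, 16.7 and 17.3 FPKM) in Ni. Every Ni library lay above every Con library, with Con 3 nearest to them, and the log2 fold change was 0.71 ± 0.21 (SE, edgeR, unadjusted p = 0.00631, adjusted p = 0.292). Without Con 3 it was 0.97, with an adjusted p of 0.00287.

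Its usual counterpart Cox4i1 was far more abundant, at 159, 193 and 142 FPKM in Con and 133, 157 and 127 FPKM in Ni, and its groups overlapped (log2 fold change -0.24 ± 0.14, SE, edgeR, unadjusted p = 0.101). As a percentage of Cox4i1, Cox4i2 was at 5.203%, 5.31% and 10.3% in Con and 15.1%, 10.6% and 13.7% in Ni. The groups did not overlap, though Con 3 and Ni 2 were close (exact permutation test, two-sided, p = 0.1, Benjamini-Hochberg adjusted p = 0.2 over 8 isoform ratios, all chosen after values were seen). Neither gene had a promoter window in the table used.

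Ndufa4l2, a paralogue of Ndufa4 that is induced by hypoxia-inducible factor and was left out by the naming rule, was at 41.7, 45.5 and 61.6 FPKM in Con and 107, 87.7 and 87.6 FPKM in Ni (log2 fold change 0.92 ± 0.15, SE, edgeR, unadjusted p = 0.000154, adjusted p = 0.185). As a percentage of Ndufa4 it was at 86.9%, 93.9% and 154% in Con and 343%, 223% and 259% in Ni (exact permutation test, two-sided, p = 0.1, adjusted p = 0.2). As for Cox4i2, Con 3 was the highest control, and Con 3 also had the highest osteoblast, stromal and macrophage marker shares of the controls. The part of cell composition in both genes was not tested.

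**Figure D3:**
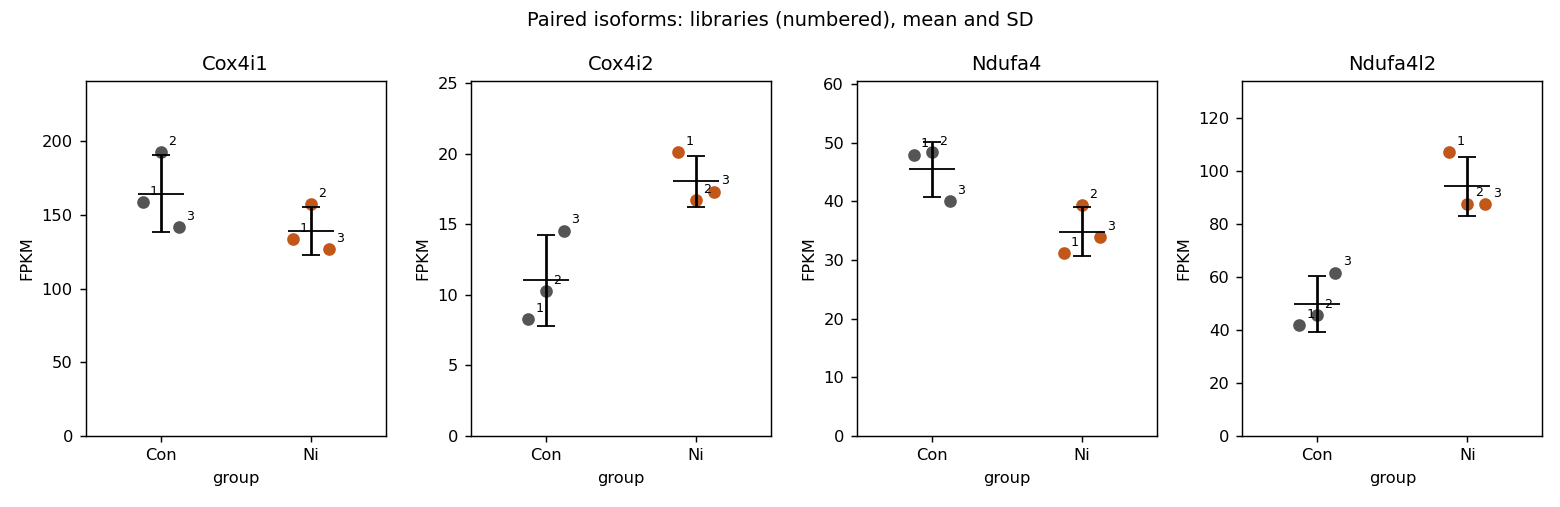
FPKM of Cox4i1, Cox4i2, Ndufa4 and Ndufa4l2 (vertical axes, each starting at 0) in Con and Ni. Points are libraries, numbered by replicate, and the bars are the mean and SD of 3 libraries. Cox4i2 and Ndufa4l2 are higher in every Ni library, Ndufa4 is lower in every Ni library, and Cox4i1 overlaps between the groups.

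The isoforms known from muscle and testis were scarce. Cox6a2 had 12, 7 and 15 counts in Con and 4, 6 and 11 in Ni, at most 0.562% of Cox6a1 in any library. Cox7a1 had 10, 25 and 25 counts in Con and 14, 23 and 13 in Ni, at most 4.87% of Cox7a2. Cox6b2 had 78, 68 and 126 counts in Con and 90, 85 and 59 in Ni, at most 4.85% of Cox6b1. None of these 3 shares had an exact permutation p under 0.2. Of the widely expressed forms, Cox6a1 was at a log2 fold change of -0.05 ± 0.16, Cox6b1 at -0.11 ± 0.09, Cox7b at -0.19 ± 0.09 and Cox8a at -0.20 ± 0.20 (SE), and the sign of Cox6a1 turned in other settings.

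In complex V, ATP synthase, 16 of 17 tested genes lay below 0 and the median log2 fold change was -0.13. The F1 part, which makes ATP in the matrix, had a median of -0.08 over 5 genes, and the 12 tested genes outside it had -0.24. Their median principal transcripts were 1410 bases in the F1 part and 770 bases outside it, and the part of this length was not tested. Atp5b, the catalytic β subunit, had 122, 130 and 127 FPKM in Con and 119, 132 and 119 FPKM in Ni (log2 fold change -0.04 ± 0.10, SE). Atp5a1 had 188, 194 and 169 FPKM in Con and 174, 178 and 171 FPKM in Ni (log2 fold change -0.08 ± 0.10, SE). Both large F1 subunits thus overlapped between the groups, as did Atp5c1 (γ, -0.13) and Atp5d (δ, -0.05).

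Atp5e, the ε subunit and the smallest of the F1 part, differed from these, with 25.8, 40.3 and 30.9 FPKM in Con and 18.3, 29.8 and 16.9 FPKM in Ni. Ni 2 lay within the control range, and the log2 fold change was -0.58 ± 0.24 (SE, edgeR, unadjusted p = 0.0462). Atp5mpl, a small proteolipid bound to the membrane part, had 27.1, 32.1 and 31.6 FPKM in Con and 19.7, 26.5 and 20.4 FPKM in Ni. It did not overlap (log2 fold change -0.45 ± 0.14, SE, edgeR, unadjusted p = 0.0083).

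The lowest fold change of all 80 genes was that of Atp5k, subunit e of the membrane part. Its counts were 112, 196 and 177 in Con and 58, 161 and 69 in Ni. Ni 2 lay among the controls and Ni 1 and Ni 3 well below them, and the log2 fold change of -0.84 ± 0.43 (SE) had an unadjusted p of 0.0858 in edgeR. Atp5h (subunit d of the peripheral stalk) was at -0.23 ± 0.10 and Atp5l (subunit g) at -0.26 ± 0.11 (SE, edgeR, unadjusted p = 0.0436 and 0.0361), both without overlap. Of their 50-base stretches, 47.9% and 84.8% also occur in other genes, and their counts are uncertain to that extent.

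Subunit c, which forms the rotor ring, is encoded by 3 genes whose mature proteins are the same. Atp5g2 had 79.5, 97.0 and 74.6 FPKM in Con and 65.0, 73.5 and 67.9 FPKM in Ni (log2 fold change -0.29 ± 0.12, SE, edgeR, unadjusted p = 0.0335), but 87.4% of the 50-base stretches along its principal transcript recur elsewhere in the annotation. Atp5g3 was at -0.12 ± 0.10 and Atp5g1 at 0.08 ± 0.09 (SE). Of the summed FPKM of the 3 genes, Atp5g1 made up 8.27% ± 1.09 (SD, n = 3) in Con and 9.91% ± 0.64 in Ni (exact permutation test, two-sided, p = 0.1). Atp5g2 made up 56.1% ± 2.42 in Con and 52.8% ± 1.07 in Ni (SD, n = 3, exact permutation test, p = 0.1), and its adjusted p over the 8 ratios was 0.2.

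The genes of short mRNAs lay lower than those of long ones. Split at the median length of the principal transcript in GENCODE M21, 823.5 bases, the 40 shorter genes had a median log2 fold change of -0.28 and 37 lay below 0. The 40 longer genes had a median of -0.11 and 32 lay below 0. At an unadjusted p under 0.05, 15 of the shorter (37.5%) and 2 of the longer genes (5%) were lower in Ni. So were 8.85% of 384 other protein-coding genes with transcripts under the same 823.5 bases, and 5.83% of all genes. Those 384 had a median principal transcript of 679 bases, against 611 for the 40 shorter genes. Over the 80 genes Spearman's rho between length and log2 fold change was 0.53, as a description, since the genes share the same 6 libraries, and over 12844 other protein-coding genes it was 0.10. This split was made after the fold changes were seen.

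**Figure D4:**
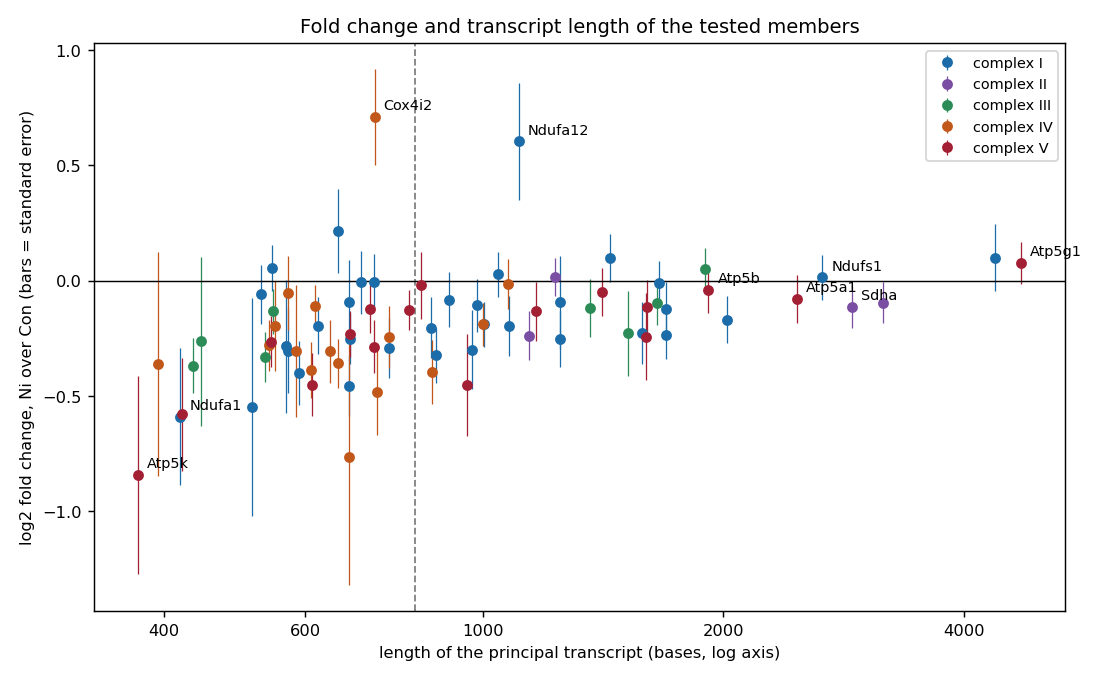
Log2 fold change in Ni against Con (vertical axis, bars are standard errors) over the length of the principal transcript (horizontal log axis, bases) for 79 of the 80 tested genes, coloured by complex. The dashed line marks the median length of 823.5 bases. Points left of it lie mostly lower, with Cox4i2 as the main exception, and long transcripts such as Ndufs1 lie near 0.

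The libraries were farther apart for the shorter genes. Their median difference from the control mean was -0.10, 0.10 and 0.02 in Con 1 to 3 and -0.37, -0.06 and -0.38 in Ni 1 to 3 on the log2 CPM scale. For the longer genes it was -0.01, 0.08 and -0.06 in Con and -0.09, -0.05 and -0.11 in Ni. Other protein-coding genes with transcripts under 823.5 bases, 384 in number and with the somewhat longer median given above, were at -0.09, 0.07 and 0.04 in Con and -0.15, 0.03 and -0.15 in Ni. Ni 1 and Ni 3 were thus low and Ni 2 near the controls for short transcripts in general, by less than for the short genes of the chain. Ni 2 was the highest Ni library for 34 of the 40 shorter genes. With a trend on transcript length removed from each library in edgeR, 8 of the 80 genes in place of 17 were lower at an unadjusted p under 0.05, and 61 of 80 lay below 0. The part of transcript length in these values, whether technical or not, was otherwise not tested.

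**Figure D5:**
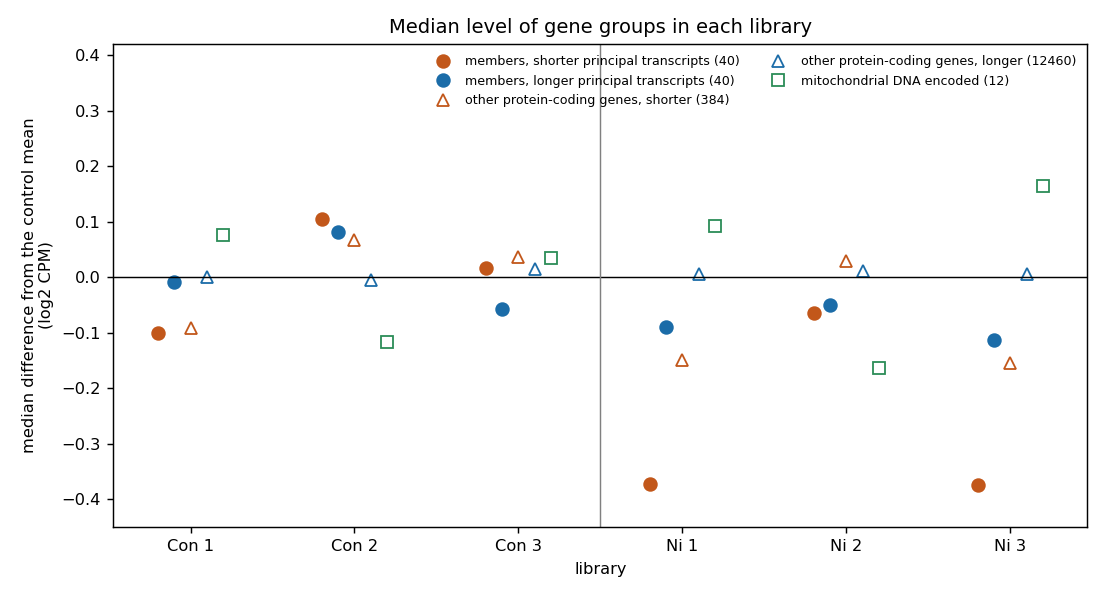
Median difference from the control mean in log2 CPM (vertical axis) for 5 groups of genes in each of the 6 libraries (horizontal axis). Filled circles are the 40 shorter and 40 longer genes of the chain, triangles are other protein-coding genes split at the same length, and squares are the 12 tested mitochondrially encoded genes. The shorter genes are lowest in Ni 1 and Ni 3, and the mitochondrially encoded genes do not follow them.

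The mitochondrially encoded subunits of the same complexes showed another pattern, though the difference from the nuclear genes was not tested. Their counts were uneven, with 4 to 20 a library for mt-Nd3, 12 to 56 for mt-Nd4l and 197 to 786 for mt-Co3. The values of such genes are uncertain. Of 13 such genes, 12 were tested, 5 lay below 0 and the median log2 fold change was 0.05, and none had an unadjusted p under 0.05. Their share of counts was 1.48%, 1.29% and 1.42% in Con and 1.49%, 1.24% and 1.63% in Ni (exact permutation test, two-sided, p = 0.7). In both groups library 2 was the lowest for these genes and the highest for the nuclear ones. mt-Co1, the catalytic subunit of complex IV, had 119791, 92576 and 102938 counts in Con and 122552, 90812 and 126168 in Ni (log2 fold change 0.02 ± 0.15, SE).

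Of 47 tested assembly factors, which build the complexes without staying in them, 34 lay below 0 with a median log2 fold change of -0.06. Sco1, which delivers copper to complex IV, was at -0.40 ± 0.15 and Coa7, a complex IV assembly factor, at -0.40 ± 0.17 (SE, edgeR, unadjusted p = 0.0273 and 0.0358). These were the 2 lower at an unadjusted p under 0.05 (4.26%, under the 5.83% of all genes), and none was higher. Of 13 tested regulators of transcription and mitochondrial DNA upkeep, 8 lay below 0, with a median of -0.05. At an unadjusted p under 0.05, 1 of the 13 was lower (7.69%, near the 5.83% of all genes) and none was higher. This was Esrra, the oestrogen-related receptor α and a known activator of these genes, whose part in the values above was not tested. It had 1493, 1707 and 1175 counts in Con and 944, 1388 and 946 in Ni (log2 fold change -0.50 ± 0.21, SE, edgeR, unadjusted p = 0.043). Ni 2 was again the highest Ni library and lay above Con 3. The coactivator Ppargc1a had 0 to 4 counts a library and was not tested.

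Of 16 genes of the tricarboxylic acid cycle and pyruvate dehydrogenase, 11 lay below 0 with a median log2 fold change of -0.04. Idh3b, a subunit of isocitrate dehydrogenase, was at -0.26 ± 0.09 and Fh1, fumarase, at -0.26 ± 0.10 (SE, edgeR, unadjusted p = 0.0222 and 0.0276). No other gene of the list had an unadjusted p under 0.05 (2 of 16, or 12.5%, where 5.83% of all genes were lower). Of 9 tested respiratory chain genes that the naming rule left out, 4 lay below 0 and 5 above, with a median log2 fold change of 0.003 and a highest of 0.92. At an unadjusted p under 0.05, 2 were lower (22.2%, against 5.83% of all genes) and 1 higher (11.1%, against 7.59%). The higher one was Ndufa4l2, already described above and chosen after values were seen, so its share carries no weight. Usmg5, a small ATP synthase subunit, was at -0.47 ± 0.17 and Cycs, cytochrome c, at -0.36 ± 0.15 (SE, edgeR, unadjusted p = 0.0201 and 0.0391).

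Ribosomal proteins were read beside the chain. The median principal transcript was 846.5 bases for the cytosolic and 1316 bases for the mitochondrial ones, against 823.5 for the 80 genes. Of 77 tested mitochondrial ribosomal protein genes, 56 lay below 0, with a median log2 fold change of -0.08, and 6 were lower (7.79%, against 5.83% of all genes) and none higher at an unadjusted p under 0.05. Of 88 tested cytosolic ones, 71 lay below 0, with a median of -0.11, and 9 were lower (10.2%) and none higher. Both medians lay between that of all genes and that of the oxidative phosphorylation genes, and the differences between these lists were not tested.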

How the data were processed

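RNA from 6 mouse BMSC cultures (Con and Ni, 3 each) was sequenced, and the authors deposited raw counts per gene, FPKM values per gene and a gene annotation with gene lengths. Reads were aligned to GRCm38 per the labels. The aligner, the counter and its strand setting were not given in the sources used here. The deposited FPKM equalled counts over gene length times 1 factor a library. Library totals were 16101033 to 18642504 counts.

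Counts were tested in edgeR 4.0.16 (TMM, filterByExpr, robust quasi-likelihood test, R 4.3.3) over all 14624 genes that passed, with Benjamini-Hochberg adjustment over all of them. DESeq2 1.42.0, limma 3.58.1 on log2(FPKM + 1) and log2(FPKM + 0.1), other scalings and filters, leaving out each library, a replicate block and length trends were alternatives. Log2 CPM used a prior count of 2. Single values were compared by exact permutation over libraries. The test scripts were checked on simulated data. Replicate pairs differed beyond sampling noise (chi-square per degree of freedom of at least 4.55).

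Members and lists were chosen with earlier results of these data known. Genes were named if they had an unadjusted p under 0.05, the highest or lowest fold change or FPKM of a complex, or belonged to the core, F1, isoform or subunit c lists. 1 member is counted in all totals but not reported by name here. The isoform ratios, the length split and Ndufa4l2 were chosen after values were seen. Transcript lengths, overlaps and shared 50-base stretches came from GENCODE M21, promoters from RefSeq GRCm38.p6.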

Additional observations from a re-analysis of the deposited data

How the results depend on the processing

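The count of members past an adjusted p under 0.05 was 0 and stayed 0 with DESeq2, limma, other scalings and the length trends, and became 10 with no filter on low counts (3.97% of all genes were then called), 2 with a replicate block (2.15% of all genes) and 2 with a replicate block and the gene-length trend removed (1.75% of all genes), Atp5e and Cox6c both times, so that the 2 are near the share of all genes. The count higher at an unadjusted p under 0.05 was 2, and 1 of the 63 members with under 20% shared stretches (1.59%). The count lower was 17, with 28 under the replicate block (8.7% of all genes, against 5.83%) and 8 with the principal-transcript-length trend removed (6.01%). Of the 63 members with under 20% shared stretches, 9 were lower (14.3%, against 5.83% of all genes). Of the 17 with at least 20% shared stretches, whose counts are uncertain, 8 were lower (47.1%). The median of complex IV was -0.29, and -0.16 with the replicate block and that trend removed. The same-numbered libraries had correlations of 0.01, 0.26 and 0.14, and the differently numbered pairs ran from -0.22 to 0.06. Whether libraries of the same number share an origin was not tested, so the replicate block is not read as a paired design. The block changed no direction among the medians. The settings that use the principal transcript and the shared stretches were chosen after seeing the data, and for none of these changes was the cause tested, beyond fewer genes being counted in the last.

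Leaving out 1 library at a time, the count past the adjusted threshold ran from 0 to 7 (7 without Con 3), the count higher from 1 to 2 (1 without Con 2, Con 3 or Ni 2), the count lower from 6 to 27 (6 without Ni 1, 7 without Con 2 or Ni 3, 27 without Ni 2) and the count of genes without overlap, 18 with all libraries, from 19 to 50 (38 without Con 1, 28 without Con 3, 50 without Ni 2), where fewer samples ease the criterion and 20%, 43.1% and 35.1% of all genes did not overlap against 14.7% with all libraries. The medians ran from -0.22 to -0.11 over all members, -0.21 to -0.08 in complex I, -0.15 to -0.07 in II, -0.29 to -0.10 in III, -0.38 to -0.19 in IV and -0.20 to -0.13 in V, and the log2 ratio of summed levels from -0.19 to -0.09. The sign turned in 6 of the named members. The log2 fold change of Cox6a1 was at 0.0387 and 0.0351 with the gene-length trend removed (without and with the block) and at 0.0637 and 0.05995 with the other trend. Ndufs1 was at -0.0017 and -0.0014 with the gene-length trend removed. The log2 fold change of Ndufv1 was at 0.000747 with no filter and at 5.1e-05 and 0.00145 with the principal-transcript trend removed. Leaving out 1 library, Atp5d ranged from -0.121 to 0.0141, Cox6a1 from -0.234 to 0.052, Cox6b2 from -0.447 to 0.029, Ndufs1 from -0.0443 to 0.0624, Ndufs3 from -0.036 to 0.0719 and Ndufv1 from -0.066 to 0.0381. Depth limited mainly Cox6a2 and Cox7a1, at 4 to 25 counts a library.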
